A study of Mus musculus with 768 samples.

Results

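Genes of glucose uptake, glycolysis and lactate handling were compared between myelinating and non-myelinating Schwann cells (SCs), the main glia of nerves, taken from the sciatic nerve of mice at P60, postnatal day 60. The set was a fixed list of 35 genes, looked up by Ensembl identifier among the 25700 genes of the count table, and all 35 were found. By role it held 3 glucose transporters, 8 genes that trap and phosphorylate hexoses and 10 genes of the triose steps down to pyruvate. It also held 5 genes that make or move lactate, 6 genes of pyruvate oxidation in mitochondria and 3 genes of side branches. Every cell came from mice in which a Cre driven by a Schwann cell lineage promoter switches on an eYFP reporter, and which also carry a beta-actin dsred transgene. All cells shared these alleles. The Cre marks the SC lineage as a whole, so sorted cells could be of either class. Cells of males and females were pooled at equal proportion before sorting, separate animals were used for each of 2 plates of 384 wells, and 1 cell was sorted per well. Libraries were made with Smart-Seq2, which copies full-length cDNA without molecular identifiers. Intervals below are for shares of cells within a plate, and they do not cover the spread between animals or plates.

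Glucose enters glia through facilitative transporters and is split to pyruvate in the cytosol. Pyruvate is either oxidised in mitochondria by the pyruvate dehydrogenase complex or reduced to lactate, which monocarboxylate transporters carry across the membrane. Lactate made by myelinating glia is known as a fuel that axons can take up, and several steps of the path are catalysed by isoforms whose genes differ in tissue pattern.

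Of the 768 cells, 674 had 1500 or more detected genes and were kept. They fell into 6 clusters, built without the 35 genes or the other pathway genes. Clusters with myelin markers (Prx, Drp2, Fa2h and others) were called mSC-like and held 153 cells on plate 1 and 73 on plate 2. Clusters with Scn7a, Cdh2, Chl1 and other markers of Remak cells were called nm(R)SC-like, from the study's name nm(R)SC for non-myelinating (Remak) SCs, and written Remak-like here. They held 171 and 248 cells. The summed level of 11 mSC markers was 74154 and 72717 CPM (reads scaled to a total of 1000000 per sum) in the mSC-like sums of plates 1 and 2 and 6787 and 7419 CPM in the Remak-like sums. The summed level of 9 Remak markers was 106 and 198 CPM against 3554 and 2675 CPM, although Gap43 stayed at or below 1.57 CPM in all 4 sums. A further cluster of 29 cells, led by the cell-cycle genes Hmgn2, Hmgb2 and Top2a, stayed unnamed and entered no comparison. It was left unnamed for its low depth and because no class marker was among its leading genes. Its median cell had 0.265 of the median reads of its plate, under a limit of 0.333. The 4 sums of cells (2 classes by 2 plates) held 31145799 to 154045794 reads. Kept cells had a median of 158689 reads and 3442 genes on plate 1 and 452484 reads and 2295 genes on plate 2, and on plate 2 mSC-like cells were deeper than Remak-like cells (medians of 658832 and 435718 reads). Of the markers of other cell types, Adipoq, Plin1 and Fabp4 of adipocytes, Tnni2 and Myh4 of muscle, and Cdh5 and Esam of endothelium were at 0 in all 4 sums. The endothelial list as a whole was higher in mSC-like cells, with summed levels of 112 and 53.6 CPM against 10.6 and 1.95 CPM, most of it Egfl7 and Kdr. Fibroblast markers, nearly all Col1a1, summed to 215 and 99.8 CPM in the mSC-like and 646 and 279 CPM in the Remak-like sums of plates 1 and 2. A list of 17 dissociation-response genes summed to 8992 CPM in mSC-like and 13631 CPM in Remak-like cells of plate 1, and to 26743 and 14415 CPM on plate 2, so its order turned between plates. Its part in the results below was not tested. Markers of immune cells, red cells and muscle summed to at most 17.9, 3.18 and 8.37 CPM in any sum, those of adipocytes to 11.6 CPM (Lipe), and those of mural cells to 54.0 CPM. The perineurial list summed to 170.3 to 314 CPM, nearly all of it Itgb4, with Msln and Ntn4 at 0.

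The comparison of the classes within each plate gave 1 call among the 35 genes. Ldhb, which encodes the heart-type subunit of lactate dehydrogenase (LDH), was higher in mSC-like cells, with 1305 and 2744 CPM on plates 1 and 2 against 446 and 653 CPM in Remak-like cells. The other members with 10 CPM or more in a class of each plate that differed 2-fold or more in the same direction on both were Slc2a1, Pfkm and Gpd1, with higher levels in mSC-like cells, and Slc16a7, with a higher level in Remak-like cells. Pfkfb3 also differed by that much toward Remak-like cells, but at levels under this limit on plate 2. Ldha, the muscle-type LDH subunit, had similar levels in both classes.

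With edgeR's quasi-likelihood test on the 4 sums, 1 of 35 members was called higher in mSC-like cells at an adjusted p under 0.05, where 1.96% of 13212 genes tested were called in that direction. No member was called higher in Remak-like cells, where 1.85% of all genes were called. At an unadjusted p under 0.05, 6 members were higher in mSC-like cells, against 6.08% of all genes, and 1 in Remak-like cells, against 7.02%. DESeq2 called 4 members higher in mSC-like cells (Slc2a1, Pfkm, Ldhb and Gpd1) against 5.53% of all genes, and 2 higher in Remak-like cells (Pfkfb3 and Slc16a7) against 7.46%. By size alone, 4 members were 2-fold or more higher in mSC-like cells in both plates, where 7.37% of the 8552 genes with 10 CPM or more in a class of each plate were, and 1 was 2-fold or more higher in Remak-like cells, where 11.9% were. All 35 members passed edgeR's filter on low counts, and 26 reached 10 CPM in a class of each plate. Among these 26, 8 were higher in mSC-like cells on both plates, 11 were lower on both and 7 changed order between plates. Of all 8552 genes under the same rule, 24.3% were higher and 38.45% lower in mSC-like cells on both plates. Their median log2 ratio of mSC-like over Remak-like cells was -0.33, and that of all 8552 genes was -0.20. The fitted ratios given below lie a median of 0.17 above such plain ratios, because the normalization in the fit centres the bulk of the genes near 0.

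**Figure D1:**
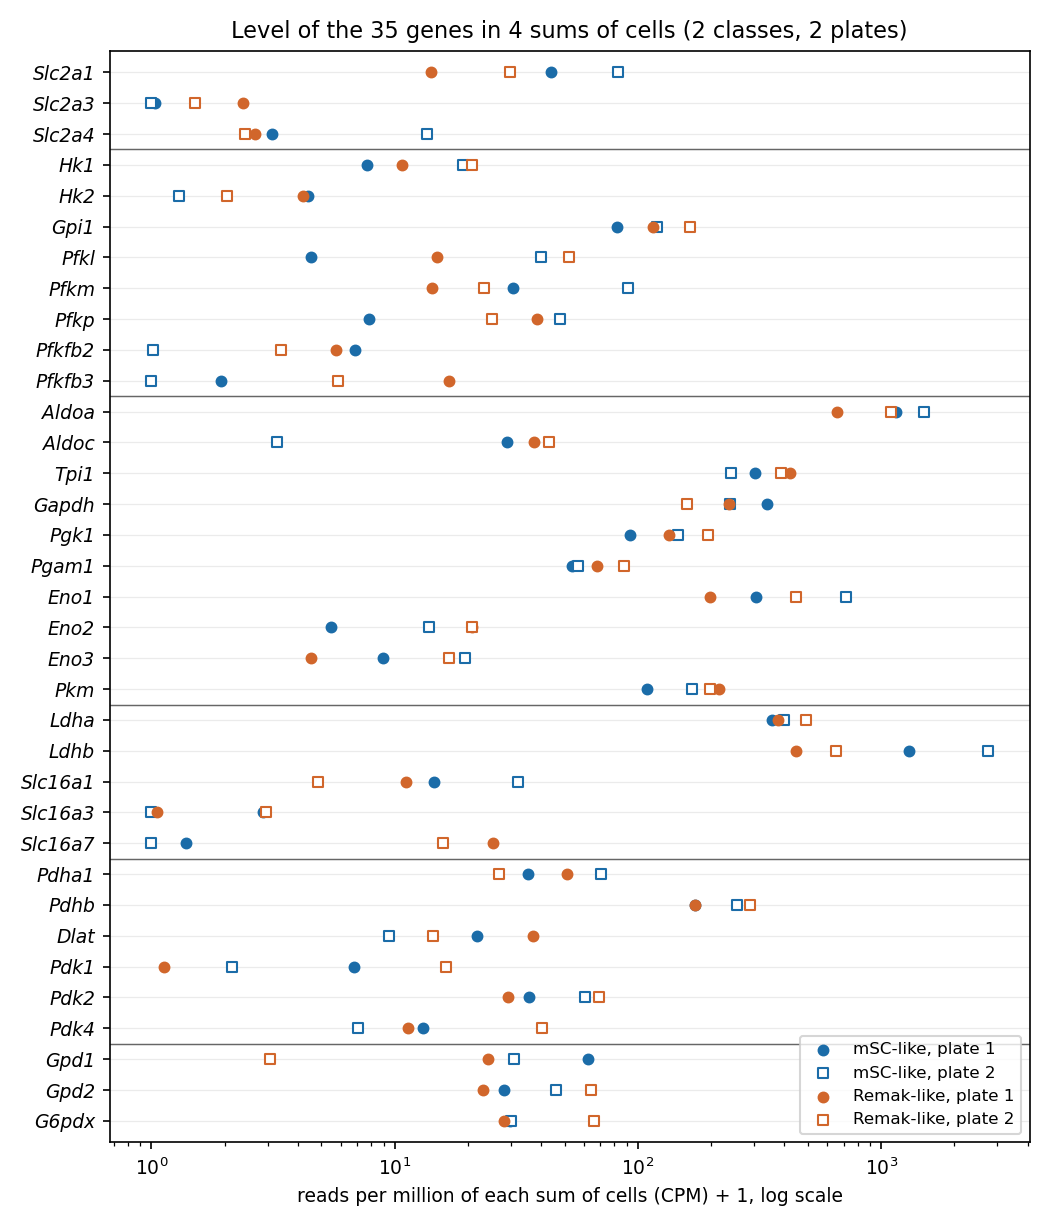
Level of each of the 35 genes in the 4 sums of cells, as CPM plus 1 on a log axis, with circles for plate 1, open squares for plate 2, blue for mSC-like and orange for Remak-like cells. Horizontal lines part the 6 roles. Both blue points of Ldhb, at 1305 and 2744 CPM, lie to the right of both orange points.

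**Figure D2:**
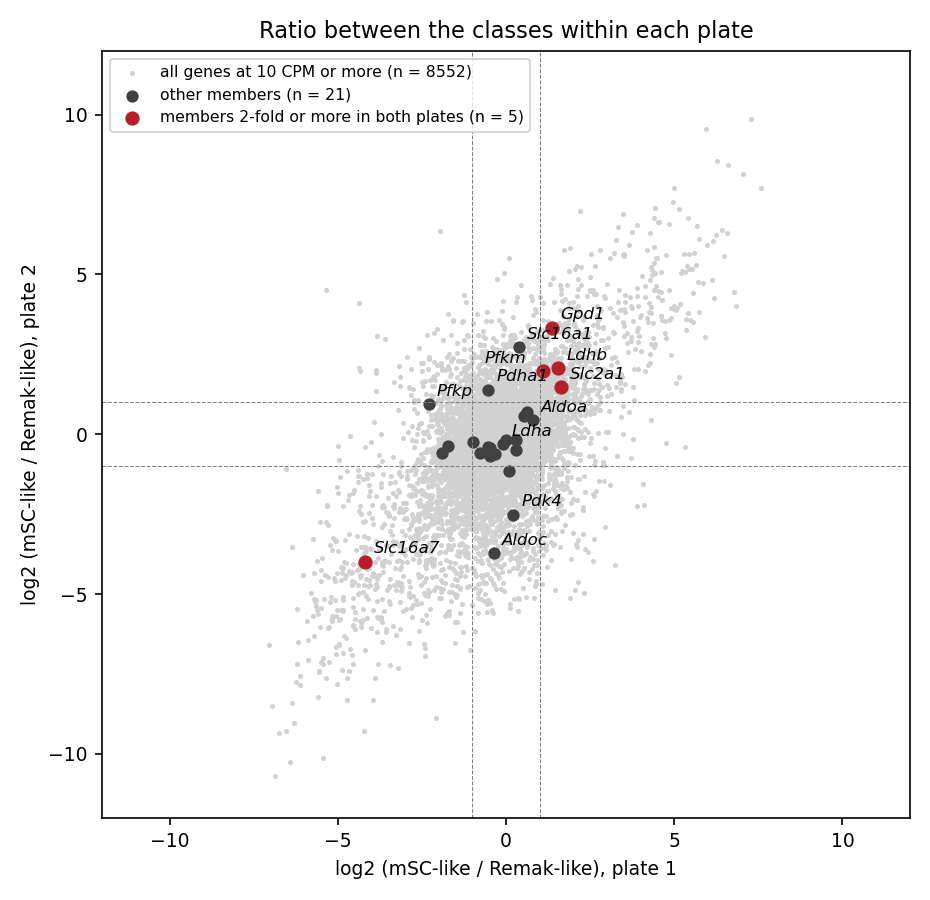
Log2 ratio of mSC-like over Remak-like cells on plate 1 (horizontal) and plate 2 (vertical), for 8552 genes in grey, 5 members past the 2-fold limit (dashed lines) on both plates in red and 21 other members in black. Pfkp and Aldoc lie far from the diagonal, and Ldha lies near the centre.

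LDH interconverts pyruvate and lactate as a tetramer of A and B subunits. The A-rich enzyme is typical of tissues that release lactate, and the B-rich enzyme of tissues that use it. Ldhb (chromosome 6, 142490249 to 142507957, minus strand, GRCm38) and Ldha (chromosome 7, 46841475 to 46855627, plus strand) have no exon overlap with another gene of the table. Because their ratio carried the clearest difference, the 250 bases before the start of each (RefSeq, GRCm38.p6) are shown, with matches to the core of the hypoxia response element, ACGTG or GCGTG on either strand, in capitals. The Ldha window is chr7:46845554-46845803 on the plus strand, for the first of its starts in the table, and the Ldhb window is chr6:142507958-142508207 on the minus strand.
Ldha: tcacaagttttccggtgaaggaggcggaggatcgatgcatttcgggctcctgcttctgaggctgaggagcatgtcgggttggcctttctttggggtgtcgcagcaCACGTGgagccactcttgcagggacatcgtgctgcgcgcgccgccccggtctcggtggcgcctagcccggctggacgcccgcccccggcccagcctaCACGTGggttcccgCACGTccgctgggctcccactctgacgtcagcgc
Ldhb: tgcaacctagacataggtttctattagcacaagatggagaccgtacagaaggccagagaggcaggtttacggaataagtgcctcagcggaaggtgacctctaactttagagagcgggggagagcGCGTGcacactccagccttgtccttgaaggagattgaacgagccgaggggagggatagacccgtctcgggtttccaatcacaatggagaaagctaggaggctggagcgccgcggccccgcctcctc
The Ldha window held 5 matches to ACGTG, of which 4 came from 2 copies of the palindrome CACGTG read on both strands, and no match to GCGTG. A second Ldha window in the table, chr7:46846832-46847081, held none to ACGTG and 1 to GCGTG. The Ldhb window also held 1 match to GCGTG and none to ACGTG. Its GC content was 56.4%, and that of the Ldha windows 67.2% and 54.4%. Of the 31 members with an entry (Gpd1, Slc2a3, Slc2a4 and Slc16a7 had none), 15 held ACGTG in at least 1 window, or 48.4%, as did 18.5% of 27025 genes. GCGTG was held by 20 members, or 64.5%, and by 30.9% of genes. CACGTG was held by 6 members, or 19.4%, and by 6.86% of genes. Members had more windows, 1.55 per gene against 1.22 over all genes, and these were richer in GC, with a median of 60.8% against 52.4%. The part of both in these shares was not tested. The windows of Hk2, Pgk1, Pkm and Slc2a1 were among those with ACGTG. These letters are a description of the windows and not of binding.

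For Ldhb, the mSC-like sums held 40635 and 148559 reads and the Remak-like sums 17100 and 100551. The ratio within a plate was 2.92-fold on plate 1 and 4.20-fold on plate 2. Each mSC-like value exceeded both Remak-like values. The fitted log2 ratio was 1.99 (SE 0.35), with an edgeR adjusted p of 0.013. No single cell made up this level: the cell with most Ldhb reads gave 4.89% to 8.43% of them in each sum. Cells of unequal depth were also compared after thinning to 100000 reads, and cells with fewer reads were left out. This kept 99 of 153 mSC-like and 112 of 171 Remak-like cells on plate 1, and 71 of 73 and 241 of 248 on plate 2. Ldhb was then read in 97.0% of 99 mSC-like cells on plate 1 (95% exact interval 91.4% to 99.4%) and 95.8% of 71 on plate 2 (88.1% to 99.1%). In Remak-like cells it was read in 88.4% of 112 (81.0% to 93.7%) and 76.3% of 241 (70.5% to 81.6%). A stricter limit of 5 reads parted the classes more, with 96.0% and 94.4% of mSC-like and 70.5% and 46.5% of Remak-like cells.

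Ldha had 355 and 398 CPM in mSC-like cells on plates 1 and 2 and 376 and 490 CPM in Remak-like cells. These values lay close together, with ratios of 0.944-fold and 0.813-fold, and the fitted log2 ratio was -0.01 (SE 0.34), with an edgeR adjusted p of 1.0. At equal depth Ldha was read in 74.7% and 62.0% of mSC-like and 73.2% and 52.7% of Remak-like cells.

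Levels of different genes were set side by side per kb of exon, with the exons of all transcripts of a gene merged. These lengths were 1.57 kb for Ldhb and 3.31 kb for Ldha, and shares of a family depend on them. How reads that map to several places were counted was not given, and its part in these shares was not tested. Ldhb was above Ldha in every sum, per kb as well as in CPM. Ldhb stood at 831 and 1748 CPM per kb in mSC-like cells on plates 1 and 2 and at 284 and 416 CPM per kb in Remak-like cells. Ldha stood at 107 and 120 against 114 and 148 CPM per kb. Ldhb thus made up 88.6% and 93.6% of the pair in mSC-like cells and 71.5% and 73.7% in Remak-like cells, or 91.1% ± 3.5 (SD, n = 2 plates) and 72.6% ± 1.6. Among all genes of the table ordered by level per kb, Ldhb was number 44 and 21 in mSC-like cells and 191 and 109 in Remak-like cells. The share was also taken in single cells with enough reads of the pair, a limit that itself counts Ldhb reads. It was met by 131 of 153 and 68 of 73 mSC-like cells on plates 1 and 2. Of the Remak-like cells 125 of 171 and 140 of 248 met it, so more of them were left out. Among cells with 20 or more reads of the pair, the median Ldhb share was 92.0% in 131 mSC-like cells on plate 1 (quartiles 77.3% and 99.8%) and 99.5% in 68 on plate 2 (95.5% and 99.98%). It was 75.1% in 125 Remak-like cells on plate 1 (32.6% and 99.6%) and 78.4% in 140 on plate 2 (31.6% and 99.9%). Per kb, Ldhb exceeded Ldha in 94.7% (95% exact interval 89.3% to 97.8%) and 94.1% (85.6% to 98.4%) of these mSC-like cells. In the Remak-like cells used it did so in 68.8% (59.9% to 76.8%) and 68.6% (60.2% to 76.2%). Among the cells used, those in which Ldha led were thus more frequent in the Remak-like class on both plates. After thinning these shares were 94.8% and 93.8% against 70.5% and 67.9%.

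**Figure D3:**
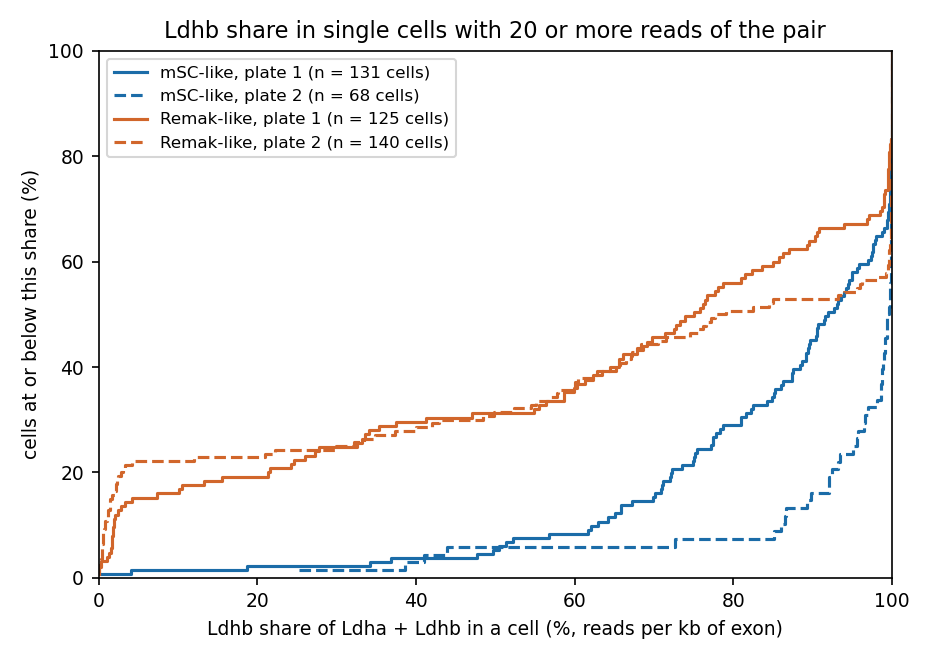
Cumulative share of cells (vertical, %) by the Ldhb share of Ldha plus Ldhb reads per kb in a cell (horizontal, %), for cells with 20 or more reads of the pair, in blue for mSC-like and orange for Remak-like cells, with plate 1 solid and plate 2 dashed. The orange lines climb early, with 32.6% and 31.6% as their lower quartiles, and the blue lines stay low until about the lower quartiles of 77.3% and 95.5%.

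Of the monocarboxylate transporters, Slc16a1 (MCT1) moves lactate in either direction, Slc16a3 (MCT4) is known for lactate export from glycolytic cells, and Slc16a7 (MCT2) has a high affinity and is known from neurons. Slc16a7 had 0.385 CPM (12 reads) and 0 CPM in the mSC-like sums of plates 1 and 2. It had 24.3 CPM (932 reads) and 14.8 CPM (2279 reads) in the Remak-like sums. Both Remak-like values lay above both mSC-like values. The edgeR adjusted p was 0.16, and DESeq2 gave 7.3e-06. The Remak-like reads came from 17 of 171 cells on plate 1 and 12 of 248 cells on plate 2, with 23.5% and 33.6% of them in 1 cell each. On plate 2, at equal depth, 0 of 71 mSC-like cells had a read, which allows a share of up to 5.06% (upper end of the exact interval), and 9 of 241 Remak-like cells had one, or 3.73%. A difference in the share of cells was thus not detectable on that plate. Gm47862 overlaps Slc16a7 on the opposite strand by 179 bases and had 71 reads in the 4 sums.

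Slc16a1 had 13.5 and 31.0 CPM in mSC-like cells on plates 1 and 2 and 10.1 and 3.82 CPM in Remak-like cells. The gap was 1.30-fold on plate 1 and 6.63-fold on plate 2, and the edgeR adjusted p was 0.68. On plate 2 the mSC-like level rested on 16 of 73 cells, with 42.1% of the reads in 1 of them. Slc16a3 stayed at or below 1.96 CPM in all sums and was read in at most 2 cells of any. Per kb, Slc16a1 made up 88.9% and 100% of the 3 transporters in mSC-like cells. In Remak-like cells it made up 52.6% and 34.8%, and Slc16a7 47.1% and 50.3%. Merged exons span 11.84 kb in Slc16a7 and 4.43 kb in Slc16a1. In CPM, Slc16a7 was above Slc16a1 in Remak-like cells of both plates. The whole family was low, with 2.48 to 6.999 CPM per kb in the 4 sums against 398 to 1868 CPM per kb for the LDH pair.

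Glucose uptake was represented by Slc2a1 (GLUT1), the transporter of most glia and barrier cells. Slc2a1 had 42.9 and 82.1 CPM in mSC-like cells on plates 1 and 2 and 13.1 and 28.9 CPM in Remak-like cells. Both mSC-like values lay above both Remak-like values, at 3.11-fold and 2.78-fold. The fitted log2 ratio was 1.79 (SE 0.64), with an edgeR adjusted p of 0.23 and a DESeq2 adjusted p of 0.031. Slc2a1 was read in 41 of 153 mSC-like cells and 27 of 171 Remak-like cells on plate 1, and in 13 of 73 and 27 of 248 on plate 2. When each cell had the same weight, the ratio on plate 2 came down to 1.37-fold with means of single-cell CPM and to 1.40-fold with thinned cells, while that on plate 1 was 2.58-fold and 2.65-fold. The levels in thinned cells were 46.4 and 66.9 CPM in mSC-like and 16.9 and 47.6 CPM in Remak-like cells, so across plates the classes then overlapped. Slc2a1 also did not meet the 2-fold rule on both plates with cells of 1000 or more genes. The endothelium is rich in this transporter. The 7 endothelial markers summed to 112 and 53.6 CPM in mSC-like and 10.6 and 1.95 CPM in Remak-like cells of plates 1 and 2, with most of the mSC-like sum from Egfl7 and Kdr, while Cdh5 and Esam were at 0 and Pecam1 did not pass 1.62 CPM in any sum. Their part in the Slc2a1 ratio was not tested. Slc2a3 (GLUT3, typical of neurons) stayed at or below 1.38 CPM. Slc2a4 (GLUT4, the insulin-responsive transporter of muscle and fat) had 2.12, 12.5, 1.67 and 1.42 CPM in the mSC-like sums of plates 1 and 2 and the Remak-like sums of plates 1 and 2. The value of 12.5 CPM came from 1 cell. Slc2a1 made up 84.8% to 95.2% of the 3 transporters per kb in the 4 sums.

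Hexokinases trap glucose as glucose 6-phosphate. Hk1, the form bound to mitochondria in nervous tissue, had 6.71 and 18.2 CPM in mSC-like and 9.73 and 19.8 CPM in Remak-like cells of plates 1 and 2. The levels on plate 2 rested on single cells, which held 68.9% of the mSC-like and 41.9% of the Remak-like reads. In thinned cells the levels were 10.7 and 10.6 against 11.96 and 15.5 CPM. Hk2 stayed at or below 3.403 CPM. Gpi1, the isomerase of the next step, had 80.6 and 119 CPM in mSC-like and 114 and 162 CPM in Remak-like cells, with an edgeR adjusted p of 0.90.

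Phosphofructokinase, the committed step of glycolysis, has muscle (Pfkm), liver (Pfkl) and platelet (Pfkp) forms. Pfkm had 29.6 and 89.9 CPM in mSC-like cells on plates 1 and 2 and 13.3 and 22.2 CPM in Remak-like cells, with an edgeR adjusted p of 0.29 and a DESeq2 adjusted p of 0.048. On plate 2 it was read in 6 of 73 mSC-like and 19 of 248 Remak-like cells, and 1 cell held 62.9% and 74.4% of the reads of each. Without the cell with most reads in each sum, the ratios were 2.52-fold and 5.69-fold. In thinned cells the ratio on plate 1 was 1.89-fold, under the 2-fold limit, and Pfkm also did not meet the rule on both plates with 10 CPM added in place of 1 or with cells of 2500 or more genes. The mSC-like cells that carried it differed between plates: cluster 3 had 11 CPM on plate 1 and 296 CPM on plate 2, and cluster 4 had 65.1 and 7.10 CPM. The 7 muscle markers summed to at most 8.37 CPM in any sum. Of these, Ckm did not pass 3.23 CPM, and Tnnc2 had 4.19 CPM in the mSC-like sum of plate 2 and 0 in the others. Pfkl had 3.53 and 39.0 CPM against 13.9 and 51.0 CPM in Remak-like cells. Pfkp had 6.81 and 47.0 CPM against 37.6 and 24.1 CPM, so its order turned between plates. Pitrm1 overlaps Pfkp on the opposite strand by 748 bases, which makes the Pfkp level uncertain, since the counting setting for strand was not given. Per kb, Pfkm led the family in mSC-like cells with 89.5% and 74.2%. In Remak-like cells it held 44.9% and 41.3%, with Pfkl at 23.5% and 47.5% and Pfkp at 31.7% and 11.2%. Merged exons span 13.4 kb in Pfkp and 3.34 kb in Pfkm, so Pfkp weighs less per kb. In CPM, Pfkp was above Pfkm in Remak-like cells of both plates.

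Pfkfb2 and Pfkfb3 encode bifunctional enzymes that set the level of fructose 2,6-bisphosphate, an activator of phosphofructokinase. Pfkfb3 had 0.931 and 0 CPM in mSC-like and 15.7 and 4.84 CPM in Remak-like cells on plates 1 and 2. The edgeR adjusted p was 0.42 and that of DESeq2 0.010. It was read in 25 of 171 Remak-like and 5 of 153 mSC-like cells on plate 1, and in 12 of 248 and 0 of 73 on plate 2. At equal depth on plate 2 it was read in 4.56% of Remak-like cells and in 0 of 71 mSC-like cells, which allows up to 5.06%. Within the Remak-like class on plate 1, cluster 2 had 49.7 CPM, and clusters 0 and 1 had 3.397 and 3.24 CPM. A single cell of cluster 2 held 267 of its 510 reads, and without that cell the cluster had 24.5 CPM. Pfkfb2 did not pass 5.88 CPM in any sum.

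The triose steps held Aldoa, the member with the highest CPM in Remak-like cells and the highest next to Ldhb in mSC-like cells. Aldoa, the main aldolase, had 1147 and 1491 CPM in mSC-like cells on plates 1 and 2 and 660 and 1095 CPM in Remak-like cells. Eno1, the ubiquitous enolase, had 306 and 717.9 against 197 and 446 CPM. Gapdh, which makes NADH in this stretch, had 337 and 237 against 235 and 158 CPM. For these 3 genes the mSC-like value was above the Remak-like value of the same plate, by 1.36-fold to 1.74-fold, and the edgeR adjusted p was 0.34, 0.32 and 0.45. The other 6 genes of these steps that reached 10 CPM on both plates had the opposite order on both. Tpi1 had 300.4 and 240.3 CPM in mSC-like and 422 and 387 CPM in Remak-like cells. Pgk1, the first step that yields ATP, had 91.8 and 146 against 133 and 194 CPM. Pgam1 had 52.8 and 55.8 against 66.8 and 86.7 CPM. Pkm, which makes pyruvate, had 108 and 165 against 214 and 196 CPM. For these 4 genes the edgeR adjusted p was between 0.76 and 0.93, and no gene of these steps passed the test. The split of 3 higher and 6 lower stands beside the 24.3% and 38.45% of all genes. Gm49759 overlaps Pkm on the same strand by 767 bases and had 7644 reads in the 4 sums. Aldoart1 and Aldoart2, close copies of Aldoa, did not pass 2.47 CPM, while Eno1b, a copy of Eno1, reached 22.65 CPM.

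The brain forms of aldolase and enolase were minor. Aldoc had 28 and 2.27 CPM in mSC-like and 36.2 and 42.2 CPM in Remak-like cells on plates 1 and 2. It made up at most 4.67% of aldolase per kb in any sum. Eno2, the neuronal enolase, had 4.50 and 12.8 against 19.7 and 19.8 CPM, with an edgeR adjusted p of 0.83. Eno2 held 1.53% and 1.86% of enolase per kb in mSC-like and 9.78% and 4.39% in Remak-like cells, and Eno1 held 85.5% to 91.1% in the 4 sums. Eno3, the muscle form, had 7.96 and 18.4 against 3.52 and 15.6 CPM, with 77.4% and 99.2% of the mSC-like reads in 1 cell each.

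**Figure D4:**
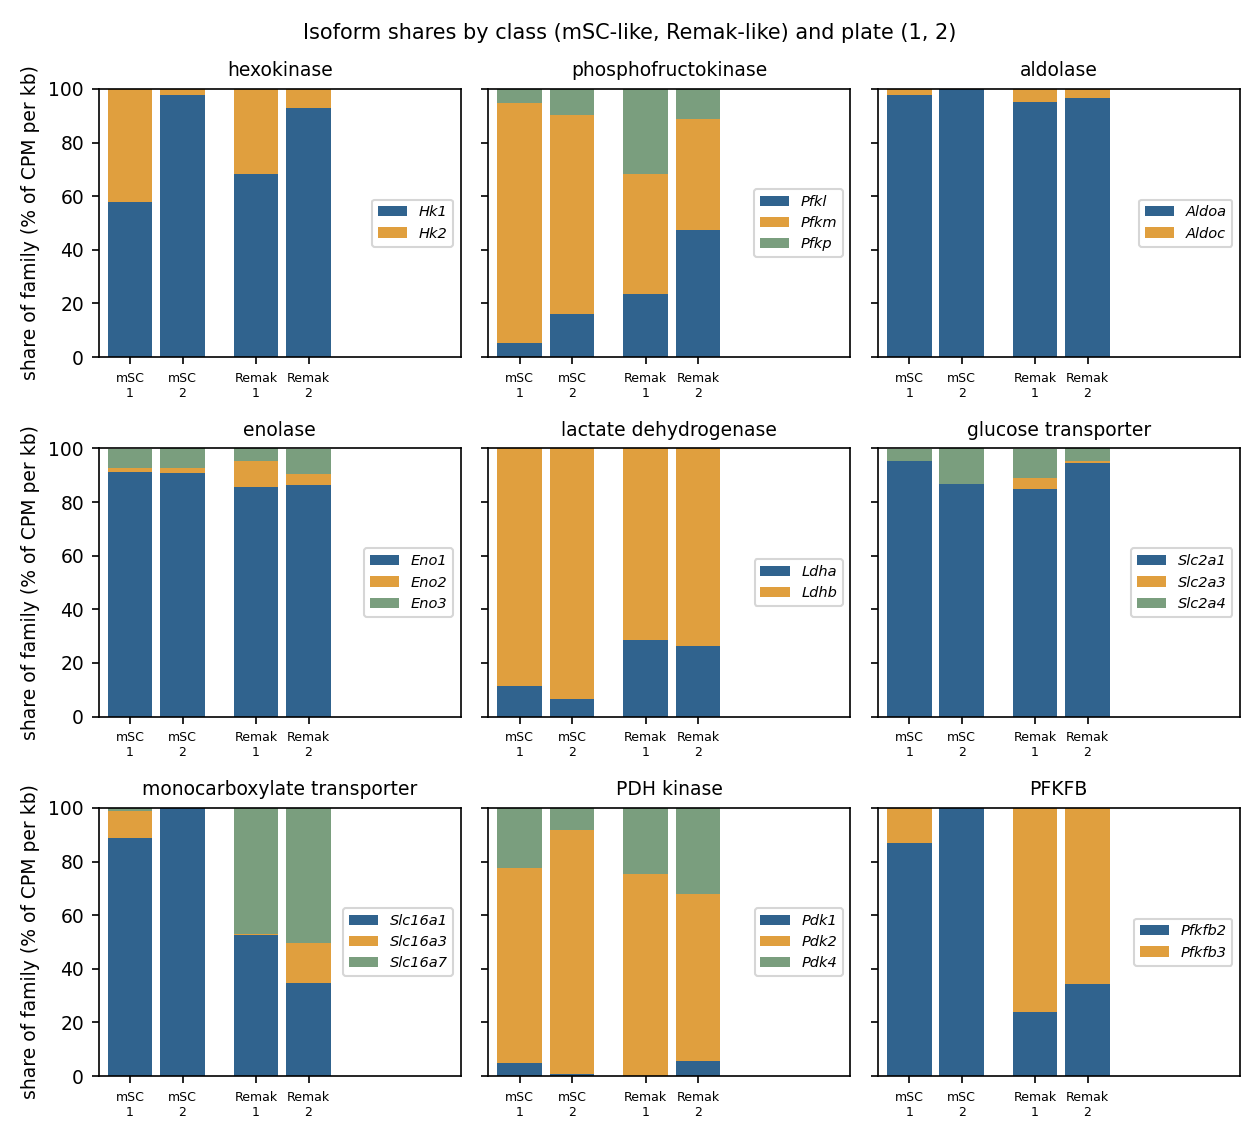
Share of each gene in its isoform family (vertical, % of the summed CPM per kb of exon) for the mSC-like and Remak-like sums of plates 1 and 2. Ldhb fills 88.6% and 93.6% of the LDH bars in mSC-like cells against 71.5% and 73.7% in Remak-like cells, and Slc16a7 fills 47.1% and 50.3% of the transporter bars in Remak-like cells against 0.947% and 0% in mSC-like cells.

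The pyruvate dehydrogenase complex oxidises pyruvate in the mitochondrial matrix, and its kinases (Pdk1, Pdk2 and Pdk4) switch it off. Pdhb, the beta subunit of its first enzyme, had 171.0 and 253.5 CPM in mSC-like and 170.5 and 287 CPM in Remak-like cells on plates 1 and 2. Pdha1, the alpha subunit, had 34.3 and 69.7 against 50.01 and 25.8 CPM, so its order turned between plates, and Map3k15 overlaps it on the opposite strand by 603 bases. Dlat, the acetyltransferase, had 20.9 and 8.50 against 36.1 and 13.4 CPM. Pdk2 was the main kinase, with 34.8 and 59.6 against 28.2 and 68.0 CPM and 62.1% to 91.0% of the family per kb. Pdk4, which is induced by fasting and fatty acids in other tissues, had 12.01 and 6.04 against 10.3 and 39.2 CPM. At equal depth it was read in 17.8% of Remak-like cells on plate 2 and in 7.04% to 8.93% of cells in the other 3 sums. Pdk1 had 5.78 and 1.15 against 0.130 and 15.3 CPM, and 96.5% of its Remak-like reads on plate 2 were from 1 cell. The edgeR adjusted p of these 6 genes was between 0.86 and 0.99.

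Gpd1 and Gpd2 form a shuttle that moves electrons from cytosolic NADH to mitochondria, and Gpd1 also supplies glycerol 3-phosphate for lipids. Gpd1 had 61.4 and 30.0 CPM in mSC-like and 23.2 and 2.07 CPM in Remak-like cells on plates 1 and 2. Both mSC-like values lay above both Remak-like values, at 2.58-fold and 10.1-fold. On plate 2 Gpd1 was read in 12 of 73 mSC-like and 8 of 248 Remak-like cells, and 1 cell held 40.8% of the reads in each class. The fitted log2 ratio was 2.81 (SE 1.00), with an edgeR adjusted p of 0.23 and a DESeq2 adjusted p of 0.0076. With each cell at equal weight the ratio on plate 1 fell below the 2-fold limit, to 1.80-fold in thinned cells and 1.69-fold with means of single-cell CPM. Among mSC-like cells its level was highest in cluster 3, led by Mfap5 and Ogn, with 84.7 and 92.7 CPM on plates 1 and 2. The other mSC-like cluster, led by Emid1 and Ncmap, had 16.9 and 4.74 CPM. On plate 1 that cluster was thus below the 23.2 CPM of the Remak-like sum, and the class difference there came from cluster 3. Gpd2 had 27.2 and 45.0 against 21.98 and 63.1 CPM. G6pdx, the entry to the pentose phosphate path, had 28.9 and 29.0 against 27.0 and 65.0 CPM, and Ikbkg overlaps it on the opposite strand by 418 bases.

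Within the classes, the clusters showed which members followed the class as a whole. Ldhb had 1392 and 2925 CPM in cluster 3 and 1137 and 2671 CPM in cluster 4 on plates 1 and 2, and 235 to 713.5 CPM in the 3 Remak-like clusters, so no cluster of one class reached the other. Slc2a1 had 41.7 to 86.6 CPM in the mSC-like and 8.28 to 32.9 CPM in the Remak-like clusters, also without overlap in these sums, although the classes overlapped in thinned cells. Ldha had 260 to 417 CPM in the mSC-like and 252 to 569 CPM in the Remak-like clusters. Slc16a7 did not pass 1.03 CPM in an mSC-like cluster, and in Remak-like clusters it ranged from 0.166 CPM (cluster 1, plate 2) to 30.2 CPM (cluster 1, plate 1). Clusters are parts of the same sums and no test was made between them.

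**Figure D5:**
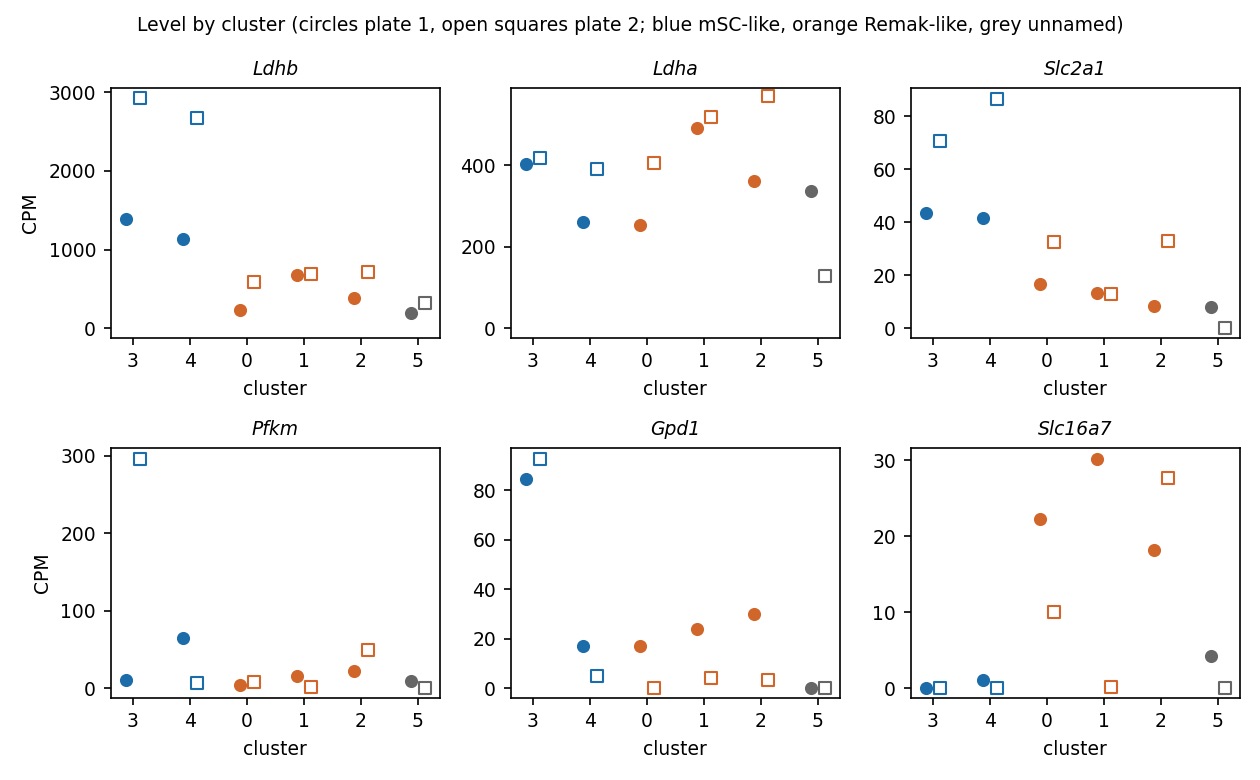
CPM of 6 members in each cluster, with circles for plate 1, open squares for plate 2, blue for the mSC-like clusters 3 and 4, orange for the Remak-like clusters 0, 1 and 2 and grey for the unnamed cluster 5. For Ldhb all blue points lie between 1137 and 2925 CPM, above all orange points, whereas Gpd1 has its highest values in cluster 3, at 84.7 and 92.7 CPM.

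The 149 other genes of the surrounding pathways were tested in the same fit, of which 120 passed its filter. Of these, edgeR gave 3 with a higher level in mSC-like cells, against 1.96% of all genes, and 2 with a higher level in Remak-like cells, against 1.85%. Slc25a1, which exports citrate from mitochondria for lipid synthesis, had 569 and 302.5 CPM in mSC-like and 139 and 84.8 CPM in Remak-like cells on plates 1 and 2, with a fitted log2 ratio of 2.11 (SE 0.37) and an edgeR adjusted p of 0.013. Of the 4 genes on the list from citrate to lipid, edgeR called no other, and DESeq2 also called Acaca. Txnip, which restrains glucose uptake and is induced by glucose, had 49.8 and 91.3 CPM in mSC-like and 463 and 322.5 CPM in Remak-like cells, with a fitted log2 ratio of -2.34 (SE 0.46) and an edgeR adjusted p of 0.023. Of the 27 regulators on the list, edgeR called no other, and DESeq2 also called Myc and Ppara. Myc had 4.21 and 1.42 against 47.0 and 59.2 CPM, with an adjusted p of 0.064 from edgeR and 1.2e-05 from DESeq2. Of 15 hypoxia targets outside glycolysis, 12 were tested, and edgeR called 2 higher in mSC-like cells and 1 higher in Remak-like cells. DESeq2 also called P4ha2, with a higher level in Remak-like cells. The median log2 ratio of the 9 targets with 10 CPM or more in a class of each plate was -0.87, toward Remak-like cells. Ndrg1, a gene needed for myelin maintenance, had 3116 and 2766 against 1234 and 1179 CPM, with an edgeR adjusted p of 0.044. The Ndrg1 call was lost under several of the other settings described further below. Lox, an enzyme that crosslinks collagen, had 199 and 15.1 against 0.756 and 0 CPM, with an edgeR adjusted p of 0.0027. Plin2, which coats lipid droplets, had 10.3 and 54.9 against 115 and 266 CPM, with an edgeR adjusted p of 0.017.

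No gene of the other 8 lists was called by edgeR. DESeq2 called Slc2a8, Slc2a10, Galm, Pgm2, Taldo1, Tkt, Slc16a11, Slc25a13 and Suclg2 in them. Over all genes it called 5.53% toward mSC-like and 7.46% toward Remak-like cells. The gene with the largest ratio of one sign in each list is given here, among those with 10 CPM or more in a class of each plate. Tkt, the transketolase of the pentose phosphate path, had 335 and 666 CPM in mSC-like and 158 and 217 CPM in Remak-like cells. Its adjusted p was 0.053 from edgeR and 0.0015 from DESeq2. Galm, which turns over the anomers of hexoses, had 4.69 and 1.53 against 43.0 and 39.1 CPM. Its adjusted p was 0.14 from edgeR and 0.00050 from DESeq2. Suclg2, a subunit of succinyl-CoA ligase, had 2.28 and 0.111 against 35.6 and 29.4 CPM, with an adjusted p of 0.14 from edgeR and 1.7e-05 from DESeq2. All 15 genes of the citric acid cycle list were tested, and their median log2 ratio was -0.22, close to the -0.20 of all genes. Slc2a8, an intracellular glucose transporter, had 6.39 and 7.17 against 31.6 and 52.4 CPM, with an adjusted p of 0.30 from edgeR and 0.031 from DESeq2. Bsg, the partner protein that brings monocarboxylate transporters to the membrane, had 522.5 and 452 against 859 and 682 CPM, with an edgeR adjusted p of 0.67. Phka2, a subunit of the kinase that activates glycogen breakdown, had 16.3 and 14.3 against 7.48 and 4.59 CPM, with an edgeR adjusted p of 0.78. Me2, a mitochondrial malic enzyme, had 10.6 and 8.59 against 30.6 and 23.4 CPM, with an edgeR adjusted p of 0.75. Got1, the cytosolic aminotransferase of the malate-aspartate shuttle, had 9.66 and 9.38 against 18.5 and 17.9 CPM, with an edgeR adjusted p of 0.93. Below 10 CPM some genes had larger ratios, of which Slc16a11 and Slc25a13 were chosen after their values were seen. Slc16a11, of the monocarboxylate transporter family, had 0 and 0 against 5.63 and 6.43 CPM, with an adjusted p of 0.22 from edgeR and 0.0027 from DESeq2. Slc25a13, an aspartate-glutamate carrier of the malate-aspartate shuttle, had 6.84 and 3.23 against 0 and 0.0779 CPM, with an adjusted p of 0.38 from edgeR and 0.013 from DESeq2.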

How the data were processed

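The authors deposited raw read counts per gene and cell, made by alignment with STAR and counting with featureCounts (STAR 2.6.1c and GRCm38.p5 per the submitters' processing notes). The study's methods give another STAR version and a human build, while the identifiers are mouse. The settings for strand and for reads that map to several places were not given in the sources used here. Symbols, coordinates and exon lengths came from GENCODE M21, which held 25664 of 25700 identifiers. Following the study, a cell needed 1500 detected genes, and after scaling to 100000 counts and log transformation the plates were joined by canonical correlation analysis (12 dimensions) and clustered at a resolution of 0.5 (Seurat 5.3.0, R 4.3.3). Each well received a single sorted cell, and doublets were not sought. Clusters were named from marker lists, whose genes were not tested. The classes were rebuilt without an annotation by the authors and can differ from theirs.

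The 35 members and 149 other pathway genes (184 in all) were held out of the clustering. The remaining genes were split in 2 parts, each tested in classes from the other, which matched the main ones in 96.9% and 92.0% of kept cells. Reads were summed per plate and class. The edgeR 4.0.16 quasi-likelihood test used TMM factors, filterByExpr at a minimum count of 10 and the plate as block, which left 1 residual degree of freedom. The block pairs the classes because both were sorted from the same animals on a plate. Adjusted p is by Benjamini-Hochberg over all 13212 genes, with a limit of 0.05. Alternatives included DESeq2 1.42.0. Ratios within a plate added 1 CPM to both values. The size rule asked for a log2 ratio of at least 1 in the same direction on both plates and 10 CPM in a class of each. Members and lists were chosen with earlier results of these data known. Every member at 10 CPM or more in a sum is named with its values, and of the other pathway genes those called, or else the gene with the largest mean ratio in its list among genes with 10 CPM in a class of each plate and the same sign on both. The fit was tested on simulated data.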

Additional observations from a re-analysis of the deposited data

How the results depend on the processing

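Of the 35 members, Ldhb was called under 11 of 12 other settings of the test, with a fitted log2 ratio of 1.80 to 2.18 with edgeR. The exception was the fit with no replicate block, where it was 2.08 with an adjusted p of 0.173 (range over all settings 1.3e-06 to 0.173). Without the block edgeR called 0 members higher in mSC-like cells and 0 other pathway genes, with 3 members higher in mSC-like and 1 in Remak-like cells and 17 other pathway genes at an unadjusted p under 0.05. The share of all genes at that unadjusted limit was not taken for this fit. With DESeq2 the members called were 4 with a higher level in mSC-like cells and 2 with a higher level in Remak-like cells, beside 18 other pathway genes. With cells of 2500 or more genes 2 other pathway genes were called, Txnip and Lox. Ndrg1 lost its call under 6 settings. Over all genes edgeR called 259 toward mSC-like and 244 toward Remak-like cells. These counts were 731 and 985 with DESeq2, 93 and 124 without the block, 158 and 165 with cells of 1000 or more genes, 94 and 84 with cells of 2500 or more genes, and 164 and 149 without the cell with most reads of each gene.

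By size, the 4 members that were 2-fold or more higher in mSC-like cells became 1 (Ldhb) with thinned cells and 2 (Pfkm and Ldhb) with the mean of single-cell CPM. Over all genes, 630 met this rule toward mSC-like cells in the main setting, 563 with thinned cells and 524 with the mean of single-cell CPM. Within the remaining plate alone 7 members were 2-fold or more higher in mSC-like cells without replicate 1 and 4 without replicate 2. With either replicate left out, 5 members were 2-fold or more higher in Remak-like cells. The share of all genes within a single plate was not taken. With cells of 2500 or more genes 2 members, Pfkp and Slc16a7, were 2-fold or more higher in Remak-like cells. Over all genes 1066 were, against 1014 in the main setting. A single plate, a pseudocount and a mean of CPM allow no test.

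The fitted log2 ratio changed sign for 7 members, none of them called in either fit. Ldha went from -0.01 to 0.0345 with DESeq2, 0.0346 with its size factors, 0.00128 and 0.027 with cells of 1000 and 2500 or more genes, 0.0206 with no integration, 0.016 with the unnamed cluster counted as Remak-like (a setting added after the data were seen) and 0.10 without the top cells. Pdhb went from 0.10 to -0.061 and -4.49e-05 with cells of 1000 and 2500 or more genes and -0.0748 with thinned cells. Gpd2 went from 0.09 to -0.086 without the block, -0.22 and -0.32 with cells of 1000 and 2500 or more genes and -0.28 with thinned cells. Pdk1 went from 0.94 to -1.16 without the block and -0.15 without the top cells. Pfkp went from -0.56 to 0.088 without the block, Eno3 from 0.88 to -2.49 without the top cells, and Dlat from -0.54 to 0.46 with cells of 2500 or more genes. The cause was not tested. With 2 plates and 1 residual degree of freedom the test has little power, so a missing call does not show that levels were alike. Levels under 10 CPM rested on few cells, and so did some above it. On plate 2, Aldoc was read in 13 of 248 Remak-like cells, and in mSC-like cells Pfkl in 12 and G6pdx in 7 of 73.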

Other observations

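The unnamed cluster of 29 cells, with 16 cells and 4678927 reads on plate 1 and 13 cells and 186928 reads on plate 2, was led by cell-cycle genes and entered no comparison. On plate 1 it had 196 CPM of Ldhb, below both classes of that plate, and 338 CPM of Ldha, so the Ldhb share in its 13 cells with 20 or more reads of the pair had a median of 49.4%. Tpi1 had 623 CPM there and 2948 CPM on plate 2, where 551 reads stood behind the value, and in both cases this was above both classes of the plate. On plate 2 the median cell of the cluster had 4081 reads, and only 1 of its 13 cells reached 100000 reads. Most of the 186928 reads were thus from 1 cell, and the plate 2 levels of the cluster rest largely on it. Aldoa had 31.8 and 230 CPM, below both classes. Slc2a4 had 50.4 CPM on plate 1, and no read on plate 2.

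Levels also differed between the plates within a class. In both classes Eno1 and Slc2a1 were higher on plate 2, with log2 ratios of plate 2 over plate 1 of 1.23 and 0.92 in mSC-like cells and 1.17 and 1.08 in Remak-like cells. Gapdh was lower on plate 2 in both, with -0.51 and -0.57, and Dlat also, with -1.20 and -1.37. Each plate holds separate animals, cells and libraries, so these cannot be told apart, and no test was made.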
